A study of Mus musculus with 48 samples.

Results

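The genes described here handle iron in the gut wall. They are Cybrd1, Slc11a2, Slc40a1 and Heph, which carry dietary iron across the absorptive cell, Tfrc, which takes up iron from the blood, the ferritin genes Fth1 and Ftl1, which store it, and Hmox1, which frees it from haem. The 8 genes were listed by symbol and were not selected by their measured values in a test. The list was, however, chosen with earlier results of these data known, so shares of all genes given beside its counts only describe. They are 8 of the 54532 genes in the count table, and all 8 were among the 21986 genes with enough counts to be tested. RNA was measured in whole-thickness pieces of mouse small intestine, 2 cm long, of duodenum just past the stomach outlet and of ileum just before the caecum. C57Bl/6J mice, male and female, without treatment or engineered allele, were sampled at day 0, 2, 4, 6 and 8 and week 2, 3 and 4 after birth. Pups were kept with their dam up to day 21, after which chow was given. Whether week 3 samples were taken before or after weaning is not given. Below, weaning names the step from week 2 to week 3. The labels describe the housing as germ-free, although whether the mice carried microbes could not be settled. Litters were usually spread over 2 or 3 ages. Each of the 16 groups of region and age had 3 samples, apart from both groups of day 6, which had 2 because the samples numbered 3 were left out.

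Absorptive cells take up non-haem iron at the gut lumen after it is reduced by the cytochrome b reductase encoded by Cybrd1, through the divalent metal transporter encoded by Slc11a2. Iron leaves the cell toward the blood through ferroportin, encoded by Slc40a1, together with the ferroxidase hephaestin, encoded by Heph. Iron that stays is held in ferritin, a shell of heavy chains (Fth1) and light chains (Ftl1), and is lost when the cell is shed. Transferrin receptor 1, encoded by Tfrc, brings transferrin-bound iron into dividing cells, and haem oxygenase 1, encoded by Hmox1, opens the haem ring and releases its iron. In cells short of iron, iron regulatory proteins bind a stem loop in the RNA, the iron-responsive element. Binding upstream of the coding sequence blocks translation, and binding downstream of it protects the RNA from decay.

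Sequences of this kind were looked for in the untranslated regions of the members, because their place bears on whether binding acts on translation or RNA stability. The search read the transcript strand for an unpaired C, then 5 bases, then the loop CAGTGN, then 5 bases that pair with the 5 before the loop, G with T allowed. It used GENCODE release M21 transcripts on GRCm38, and 4 of the 8 genes held a match. The matches are shown as 29 bases, 5′ to 3′ on the transcript strand, with the loop in capitals. The match of Slc40a1 lay in the 5′ untranslated region at chr1:45925465-45925493 on the minus strand, that of Fth1 in the 5′ untranslated region at chr19:9982732-9982760 on the plus strand, and that of Ftl1 in the 5′ untranslated region at chr7:45459779-45459807 on the minus strand.
Slc40a1: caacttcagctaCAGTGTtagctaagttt
Fth1: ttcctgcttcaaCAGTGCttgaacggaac
Ftl1: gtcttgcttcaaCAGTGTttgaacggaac
Tfrc held 4 matches, all in the 3′ untranslated region on the plus strand, at chr16:32631219-32631247, chr16:32631598-32631626, chr16:32631663-32631691 and chr16:32631710-32631738.
Tfrc a: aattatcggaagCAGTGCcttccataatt
Tfrc b: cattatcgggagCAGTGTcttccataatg
Tfrc c: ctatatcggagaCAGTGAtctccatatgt
Tfrc d: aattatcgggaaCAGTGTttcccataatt
Of 21901 protein-coding genes, 0.142% held a match in a 5′ untranslated region and 0.589% in a 3′ untranslated region. Cybrd1, Slc11a2, Heph and Hmox1 held no string of this form in the windows read. The search asked for 5 unbroken pairs, so a stem loop with a bulge or mismatch there would be missed. A gene without a match may therefore still hold an iron-responsive element. The values below are RNA levels and carry no information on translation.

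Total estimated counts ran from 16824021 to 65042327 per sample, with a median of 32786601.5. The samples labelled day 6 number 3 went against their labels: Pdx1, which marks the proximal gut, read 0.115 CPM in the duodenum sample and 14.6 CPM in the ileum sample. Both were left out, and each count of members that rests on them is given with them where it changes. CPM, counts scaled to a fixed library total, is not divided by gene length, so a level is compared between groups for the same gene only. Enterocyte markers (8 genes) summed to between 11800 and 69500 CPM in a sample. Smooth muscle markers (5 genes) summed to between 4.24 and 158 CPM, although the tissue is labelled whole thickness, and all 5 were called higher in ileum when ages were averaged. Acinar markers of the pancreas, which borders the duodenum, summed to between 5.52 and 682 CPM in duodenum and between 2.36 and 28.3 CPM in ileum, and their part in differences between the regions was not tested. Stomach markers (5 genes found) reached at most 20.3 CPM. Markers of the proximal gut (Pdx1 and Onecut2) summed to at least 136 CPM in each duodenum sample and at most 96.3 CPM in each ileum sample, that highest value being ileum day 0 sample 2. Markers of the ileum (3 genes) summed to at most 32 CPM in duodenum and at least 68.7 CPM in ileum. Ileum week 4 sample 1 stood apart on that list, at 110 CPM against 2000 and 2300 CPM in the other two, and without it 5 of the 8 iron genes were called from day 0 to week 4 in the ileum and 3 from week 3 to week 4, the same counts as with it. In a bulk sample, fewer cells of a type and less RNA per cell cannot be told apart. The labels do not say that samples of a group came from separate mice, so p-values measure the spread between these samples.

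From day 0 to week 4 the importer gene Slc11a2 and the exporter gene Slc40a1 fell in both regions, the transferrin receptor gene rose and Hmox1 fell to about 1 CPM. In the duodenum 7 of the 8 genes were called, meaning an adjusted p under 0.05 in edgeR's quasi-likelihood test, when 40.5% of all tested genes were. In the ileum 5 of 8 were called, against 41.9% of all genes. Ftl1 also fell in both regions. Cybrd1 fell and Fth1 rose in the duodenum, where 2 of 8 were higher and 5 lower (all genes: 20.4% and 20.1%). In the ileum 1 of 8 was higher and 4 lower (all genes: 21.5% and 20.4%). The median log2 change of the 8 genes was -1.33 in each region, against -0.02 in the duodenum and 0.08 in the ileum over all tested genes. Over all 8 ages, the test for any effect of age called all 8 genes in each region, against 67.4% (duodenum) and 58.7% (ileum) of all genes. The call of Fth1 in the ileum (adjusted p = 0.0476) did not hold in most other settings. That of Heph in the ileum was lost in 4 of 58 other settings (adjusted p up to 0.0732). With an index of sex as a covariate, 6 of 8 were called in the ileum and 8 in the duodenum.

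Cybrd1, the reductase gene, had its highest duodenal means at day 2 and week 2 and fell there between week 3 and week 4. In the duodenum its samples stood at 54.3, 53.7 and 56.5 CPM at day 0 and at 102, 79.3 and 80.8 CPM at day 2. They were 61.2, 36.9 and 32 CPM at day 4, 22.5 and 34.2 CPM at day 6, and 38.1, 35.6 and 35.8 CPM at day 8. At week 2 they reached 136, 70.9 and 85.95 CPM. The samples of day 8 were all below those of week 2, and week 2 was the highest of the 16 groups. At week 3 the duodenum samples were spread from 26.9 to 117 CPM, and at week 4 they stood at 12.75, 6.42 and 5.69 CPM, below every earlier duodenum sample. The step from day 8 to week 2 was a rise by a log2 of 1.42 ± 0.41 (SE, adjusted p = 0.0162), and that from week 3 to week 4 a fall by 3.17 ± 0.44 on the log2 scale, 8.99-fold (adjusted p = 2.91e-06). The rise was not called without day 8 sample 1, 2 or 3 (adjusted p = 0.0516, 0.0588 and 0.0524) or week 2 sample 1 (log2 1.10, adjusted p = 0.136). Between week 2 and week 3, across weaning, the duodenum samples overlapped (log2 -0.38 ± 0.40, adjusted p = 0.567).

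In the ileum Cybrd1 was lower, and there it fell across weaning. Ileum samples lay between 14.6 and 37.4 CPM from day 0 to week 2, and at week 2 they were 32.5, 15.8 and 18.9 CPM. At week 3 they stood at 4.92, 6.90 and 7.96 CPM, the lowest group of all, and at week 4 at 12.9, 7.08 and 29.3 CPM. The groups of week 2 and week 3 did not overlap, and the fall was 3.40-fold (log2 -1.77 ± 0.43, adjusted p = 0.00179). The difference between the regions in this change was not called (log2 -1.38 ± 0.58, adjusted p = 0.364). The rise from week 3 to week 4 (log2 1.3 ± 0.43, adjusted p = 0.0352) rested on sample 3 of week 4, without which it was 0.55 (adjusted p = 0.465). It was also lost without ileum week 3 sample 1 (adjusted p = 0.169) or sample 2 (adjusted p = 0.0801). Week 4 against day 0 was not called in the ileum (log2 -0.91 ± 0.41, adjusted p = 0.0777), but was called in 5 of 58 other settings, with -1.64 (adjusted p = 0.00333) without ileum week 4 sample 3.

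Slc11a2, the importer gene, had its highest means at day 2 and week 2 and its lowest at week 4 in the duodenum and at week 3 and week 4 in the ileum. Its duodenum samples stood at 191, 156 and 124 CPM at day 0, 379, 293 and 283 CPM at day 2, and 174, 151 and 147 CPM at day 8. At week 2 they were 444, 284 and 393 CPM, at week 3 they were 367, 113 and 75.2 CPM, and at week 4 they were 68.3, 48.2 and 61.2 CPM. The samples of week 2 were all above those of day 8, while 1 of the week 3 samples lay within the range of week 2 and the other two were far below it. In the ileum the samples stood at 207, 136 and 111 CPM at day 0, 335, 368 and 351 CPM at day 2, and 159, 225 and 189 CPM at day 8. Ileum samples of week 2 were at 408.5, 322 and 392 CPM, those of week 3 at 51.1, 42.5 and 40.8 CPM, and those of week 4 at 49.8, 49.15 and 35.5 CPM. Every ileum sample of week 3 and week 4 was below every ileum sample of the earlier ages.

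From day 8 to week 2 Slc11a2 rose 2.38-fold in the duodenum (log2 1.25 ± 0.35, adjusted p = 0.0147), a call lost without day 8 sample 2 (adjusted p = 0.0565) or 3 (0.0544) or week 2 sample 1 (0.0932). Across weaning it fell 8.35-fold in the ileum (log2 -3.06 ± 0.38, adjusted p = 5.39e-08) and 2.02-fold in the duodenum (log2 -1.01 ± 0.35, adjusted p = 0.0401). The duodenal call was lost without duodenum week 2 sample 1 (log2 -0.87, adjusted p = 0.143) or sample 3 (-0.98, 0.0944), and without week 3 sample 2 (-0.77, 0.211) or sample 3 (-0.64, 0.239). Without week 3 sample 1 the value was the largest, at -1.99. The duodenum fell again from week 3 to week 4, 3.12-fold (log2 -1.64 ± 0.36, adjusted p = 0.00152), which was lost without duodenum week 3 sample 1 (log2 -0.66, adjusted p = 0.163). The ileum stood at the same mean at week 3 and week 4 (44.8 CPM at each). Over the whole period the fall, week 4 against day 0, was 2.65-fold in the duodenum (adjusted p = 0.0017) and 3.38-fold in the ileum (adjusted p = 0.000148). Gm5475, a gene on the opposite strand, overlaps Slc11a2 at chr15:100387898-100425072, and whether counting used strand is not given in the sources used here.

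Slc40a1, the exporter gene, followed a course close to that of Slc11a2, with a correlation of 0.89 over the 16 group means of log2 CPM, a description of groups that share libraries and ages. In the duodenum its samples stood at 762.5, 902 and 844 CPM at day 0 and at 889, 770 and 747 CPM at day 2. They stood at 381, 349.5 and 380 CPM at day 8, 1229, 680 and 899.5 CPM at week 2, and were 479, 320 and 164 CPM at week 3. At week 4 they were 208, 24.3 and 148 CPM, sample 2 lying far below the other two. In the ileum the samples ran from 742 to 970 CPM at day 0 and day 2, stood at 390, 474 and 448 CPM at day 8, and at 790.5, 661 and 758 CPM at week 2. Ileum samples of week 3 stood at 54.4, 22.4 and 14.5 CPM, and those of week 4 stood at 75.7, 130 and 144 CPM, all above week 3 and all below week 2.

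In the duodenum Slc40a1 fell 2.26-fold from day 0 to day 8 (adjusted p = 0.036) and rose 2.53-fold from day 8 to week 2 (adjusted p = 0.0405). These calls were lost in 8 and 10 of 56 other settings, among them leaving out any of the 6 samples of day 0 and day 8 for the fall and any sample of day 8 or week 2 sample 1 or 3 for the rise. The fall at weaning was 24.2-fold in the ileum (log2 -4.59 ± 0.52, adjusted p = 1.17e-08; -5.32 without ileum week 3 sample 1) and 2.92-fold in the duodenum (log2 -1.54 ± 0.46, adjusted p = 0.0143). The duodenal value was not called without duodenum week 2 sample 1 (log2 -1.30, adjusted p = 0.0769) or week 3 sample 3 (-1.23, adjusted p = 0.0976). From week 3 to week 4 the values had opposite signs, a difference that was not tested, with a rise by a log2 of 1.94 ± 0.47 in the ileum (adjusted p = 0.00303; 2.66 without ileum week 3 sample 1) and a fall by 1.34 ± 0.46 in the duodenum (adjusted p = 0.0471). The duodenal groups overlapped at this step, and the call was lost in 34 of 56 other settings (adjusted p from 0.0122 to 0.245). Without duodenum week 4 sample 2 the value was -0.84 (adjusted p = 0.227). Week 4 means were 127 ± 93.5 CPM in the duodenum and 117 ± 36.2 CPM in the ileum (SD, n = 3 each), with a difference of -0.12 ± 0.45 in log2. Between day 0 and week 4 the gene fell 6.6-fold in the duodenum (adjusted p = 1.8e-05) and 6.9-fold in the ileum (adjusted p = 1.19e-05).

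Macrophages also express ferroportin and haem oxygenase, so their markers are given beside these genes. Of 9 tested macrophage markers, 1 was called lower from week 2 to week 3 in the duodenum and 2 in the ileum, and none higher (all genes: 10.6% and 13.9% lower). In the duodenum all 9 were called lower at day 8 than at day 0 (41.2% of all genes called). There 5 were called higher at week 2 than at day 8 (6.75% of all genes higher). In the ileum 1 was called higher at the first of these steps and none at the second. At day 8, 6 of the 9 were called higher in ileum than in duodenum (39.6% of all genes called). The summed level of the macrophage list, 10 genes, went from 108 to 155 CPM at week 2 to 41.1 to 47.9 CPM at week 3 in the duodenum, and from 134 to 166 CPM to 33.7 to 40.1 CPM in the ileum. Csf1r made up most of that sum, at 78.4 to 121 CPM at week 2 and 14.2 to 20.7 CPM at week 3 in the duodenum and at 101 to 127 CPM and 11.1 to 15.7 CPM in the ileum. Without Csf1r the other 9 genes found summed to 27.8 to 34.7 CPM and 20.4 to 30.2 CPM in the duodenum and to 28.6 to 39.6 CPM and 18 to 27 CPM in the ileum. Vsig4, a marker of some resident macrophages, was at 0 in every sample of week 2. Of 8 enterocyte markers, 2 were called higher and 1 lower from week 2 to week 3 in each region. The part of either cell type in the falls and rises of Slc40a1 and Slc11a2 was not tested.

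**Figure D1:**
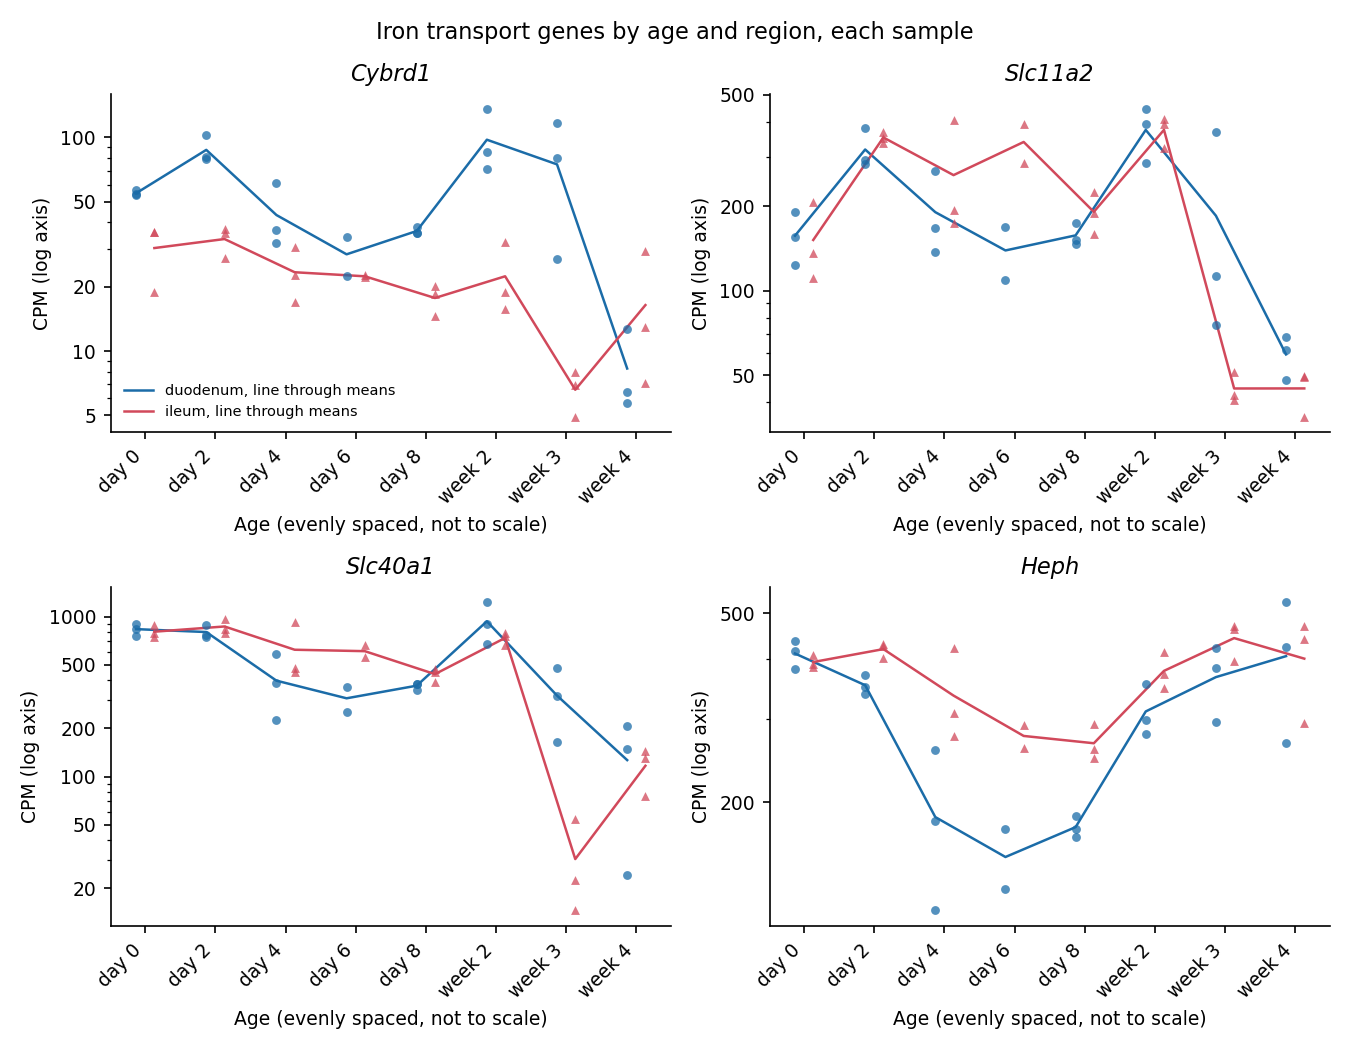
CPM of the iron transport genes on a log axis, by age, with 1 point per sample (circles, duodenum; triangles, ileum) and lines through the group means. Slc11a2 and Slc40a1 drop between week 2 and week 3 in the ileum, Cybrd1 drops between week 3 and week 4 in the duodenum, and Heph dips at day 4 to day 8.

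Heph, the ferroxidase gene, dipped between day 4 and day 8, and in the duodenum its week 4 samples spanned those of day 0. Its duodenum samples stood at 436, 416 and 382 CPM at day 0, 257, 183 and 118 CPM at day 4, and 131 and 176 CPM at day 6. At day 8 they were 187, 176 and 169 CPM, at week 2 they were 356, 278 and 298 CPM, and at week 4 they were 266, 527 and 425.5 CPM. All day 8 samples lay below all day 0 and all week 2 samples. The gene fell 2.32-fold from day 0 to day 8 (log2 -1.22 ± 0.21, adjusted p = 1.37e-05) and rose 1.75-fold from day 8 to week 2 (log2 0.81 ± 0.21, adjusted p = 0.00799). The rise was not called without duodenum week 2 sample 1 (log2 0.70, adjusted p = 0.0729). In the ileum the lowest group mean was that of day 8, with samples at 259, 292 and 248 CPM, below the 385 to 408.5 CPM of day 0, and this step was not called (log2 -0.57 ± 0.21, adjusted p = 0.0516). Week 4 against day 0 gave a log2 of -0.02 ± 0.21 in the duodenum and 0.02 ± 0.21 in the ileum, and weaning gave 0.24 ± 0.21 and 0.23 ± 0.21, none of them called. Of 8 enterocyte markers in the duodenum, 4 were called lower at day 8 than at day 0 and none higher (41.2% of all genes called). From day 8 to week 2, 3 were called higher and none lower (15.7%). Their sum was 33500 to 41000 CPM at day 0, 22100 to 25700 CPM at day 8 and 35800 to 69500 CPM at week 2. Their part in the course of Heph was not tested. Hsf3, on the opposite strand, and 2 processed pseudogenes overlap Heph at chrX:96455359-96574485.

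Tfrc, the transferrin receptor gene, rose within days of birth in both regions. In the duodenum its samples stood at 80, 98.8 and 117 CPM at day 0, 216, 170 and 173 CPM at day 2, and 405, 406.5 and 364 CPM at day 8. In the ileum they stood at 51.7, 60.0 and 36.4 CPM at day 0, 148, 87.6 and 133.5 CPM at day 2, and 228, 203.5 and 194 CPM at day 8. Neither region's day 0 samples overlapped those of day 2 or day 8, and the ileum at day 0 was the lowest of the 16 groups. By day 8 the gene had risen 3.97-fold in the duodenum (log2 1.99 ± 0.26, adjusted p = 9e-08) and 4.23-fold in the ileum (log2 2.08 ± 0.26, adjusted p = 2.19e-07). By day 2 the rise was 1.89-fold in the duodenum (adjusted p = 0.0185) and 2.5-fold in the ileum (adjusted p = 0.000944). At day 2 the duodenal call was lost without duodenum day 0 sample 1 (adjusted p = 0.111) or sample 2 (0.0715) or day 2 sample 1 (0.115).

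Later Tfrc settled at a level above that of birth. Duodenum samples stood at 158, 274 and 267 CPM at week 2 and at 279, 229 and 254 CPM at week 4, and ileum samples at 123, 133 and 131 CPM and at 181, 250 and 125.5 CPM. The fall from day 8 to week 2 in the duodenum (log2 -0.75 ± 0.25, adjusted p = 0.0361) was lost in 12 of 56 other settings, and reached -0.53 (adjusted p = 0.267) without duodenum week 2 sample 1. Week 4 stood above day 0 by 2.57-fold in the duodenum (adjusted p = 3.48e-05) and 3.76-fold in the ileum (adjusted p = 1.13e-07). Weaning gave no call for Tfrc (log2 0.19 ± 0.25 and 0.46 ± 0.25). Proliferation markers, a list of 6 genes, were all called higher at day 8 than at day 0 in both regions, with the summed level going from between 352 and 420 CPM to between 1790 and 1920 CPM in the duodenum. In the ileum the sum went from between 211 and 299 CPM to between 682 and 818 CPM, and 5 of the 6 were called lower at week 2 than at day 8 in each region. Their part in the course of Tfrc was not tested.

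Hmox1, the haem oxygenase gene, had its highest level on the day of birth. In the duodenum its samples stood at 145, 67.35 and 55.2 CPM at day 0 and at 8.31, 10.5 and 9.52 CPM at day 2. In the ileum they stood at 121, 95 and 206 CPM at day 0 and at 23.5, 25.5 and 21.7 CPM at day 2. No sample of day 2 came near any sample of day 0. The fall over these days was 9.44-fold in the duodenum (log2 -3.24 ± 0.36, adjusted p = 1.49e-07) and 5.97-fold in the ileum (log2 -2.58 ± 0.35, adjusted p = 6.83e-06). Of the 8 genes, 2 (duodenum) and 3 (ileum) were called between day 0 and day 2, against 6.8% and 5.2% of all genes. Besides Hmox1 and Tfrc the third was Slc11a2, higher by 2.32-fold in the ileum (adjusted p = 0.0371), a call lost in 7 of 56 other settings. In 5 of these a single ileum sample of day 0 (sample 2 or 3) or day 2 (any of the 3) was left out.

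A further drop of Hmox1 came at weaning. Duodenum samples went from 8.82, 8.37 and 6.97 CPM at week 2 to 1.68, 0.558 and 1.28 CPM at week 3, and ileum samples from 18.2, 22.7 and 24.8 CPM to 2.24, 0.965 and 0.916 CPM. The fall was 6.57-fold in the duodenum (log2 -2.72 ± 0.38, adjusted p = 8.88e-07) and 15.6-fold in the ileum (log2 -3.96 ± 0.40, adjusted p = 6.55e-10). At week 4 the samples stood at 0.678, 0.862 and 0.672 CPM in the duodenum and at 0.583, 0.838 and 1.07 CPM in the ileum. At week 4 the gene was, against day 0, 120-fold lower in the duodenum (adjusted p = 3.8e-15) and 170-fold lower in the ileum (adjusted p = 1.53e-15). The 16 group means spanned 191-fold, the widest span among the 8 genes.

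Red cells carry haem, the substrate of this enzyme, so their markers are given beside Hmox1. All 7 erythroid markers, globin genes among them, were called lower at day 2 than at day 0 in the duodenum and 5 of 7 in the ileum (6.8% and 5.2% of all genes called). Their summed level went from between 713 and 2970 CPM to between 126 and 326 CPM in the duodenum and from between 235 and 850 CPM to between 68.2 and 86.1 CPM in the ileum. At day 8 against day 0 none of the 7 was called in either region (41.2% of all genes in the duodenum, 19.3% in the ileum). Mean Hmox1 was then 4.3 CPM in the duodenum and 12.5 CPM in the ileum. At week 4 against day 0, 6 were called lower in the duodenum (20.1% of all genes lower) and none was called in the ileum (41.9% called). At week 3 against week 2 none of the 7 was called by edgeR in either region, and none had an unadjusted p under 0.05. At day 4 in the duodenum the erythroid sum stood at 559, 580 and 4430 CPM in samples 1, 2 and 3. Hmox1 stood at 6.71, 6.03 and 10.4 CPM there. None of 9 macrophage markers was called by edgeR between day 0 and day 2 in either region. At an unadjusted p under 0.05 there were 1 in the duodenum and 4 in the ileum, a threshold at which all genes were not counted. The part of red cells and macrophages in the level of Hmox1 was not tested.

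**Figure D2:**
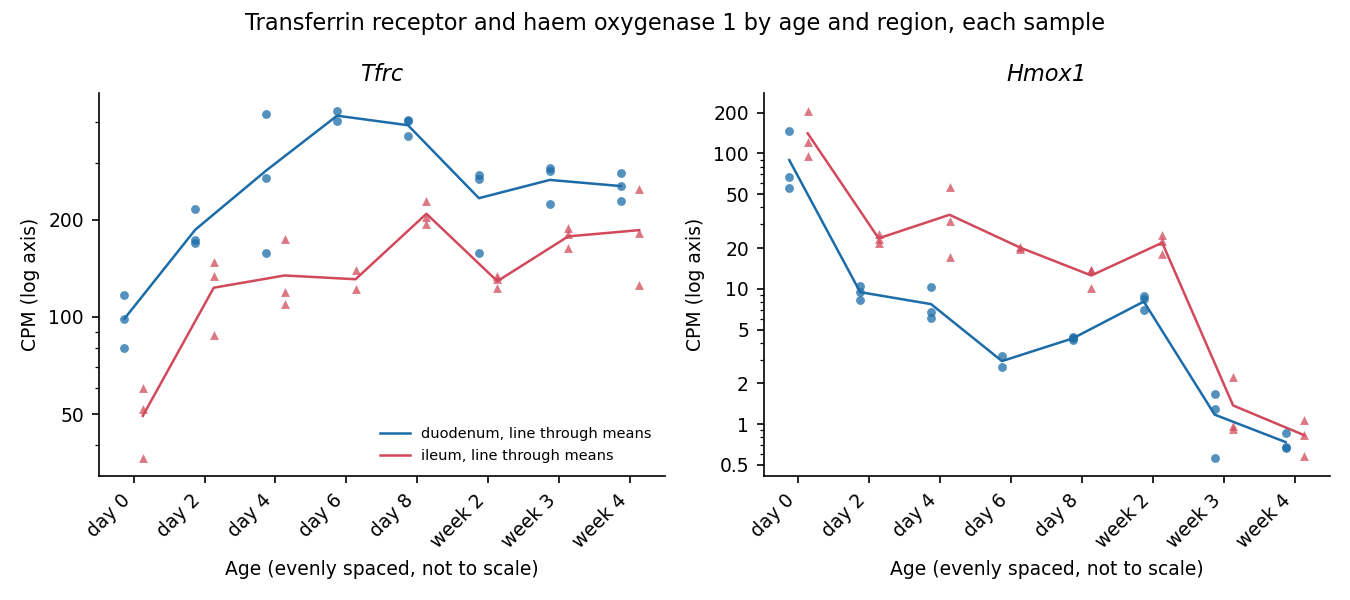
CPM of Tfrc and Hmox1 on a log axis, by age, with 1 point per sample (circles, duodenum; triangles, ileum) and lines through the group means. Tfrc is lowest at day 0, and Hmox1 falls from 55.2 CPM or more at day 0 to 25.5 CPM or less at day 2 and to about 1 CPM after weaning.

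The ferritin genes parted with age. In duodenum the light chain gene, Ftl1, had values of 1826, 1354 and 1302 CPM at day 0, of 709, 621 and 747 CPM at day 8, of 1361, 910 and 877 CPM at week 2, and of 605, 548.5 and 524 CPM at week 3. Its ileum samples were at 2631, 1539 and 1950 CPM at day 0, at 920.5, 1137 and 1191 CPM at day 8, at 1394, 1551 and 1753 CPM at week 2, and at 640.0, 614 and 527 CPM at week 3. Samples of week 4 were at 618.5, 576 and 680.0 CPM in the duodenum and at 430.1, 372 and 325 CPM in the ileum, the lowest group of the 16. All week 4 samples lay below all day 0 samples of their region. The fall from day 0 to week 4 was 2.39-fold in the duodenum (log2 -1.26 ± 0.23, adjusted p = 1.95e-05) and 5.43-fold in the ileum (log2 -2.44 ± 0.23, adjusted p = 4.83e-11).

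Ftl1 fell from day 0 to day 8 and again across weaning. By day 8 it was lower by 2.16-fold in the duodenum (adjusted p = 0.000114) and 1.88-fold in the ileum (adjusted p = 0.00293). Across weaning it fell 1.88-fold in the duodenum (log2 -0.91 ± 0.22, adjusted p = 0.00278) and 2.64-fold in the ileum (log2 -1.40 ± 0.23, adjusted p = 5.97e-06). The duodenal value at weaning just missed the threshold without duodenum week 2 sample 1 (log2 -0.68, adjusted p = 0.0502). A further fall at week 4 in the ileum (log2 -0.66 ± 0.22, adjusted p = 0.0375) was lost in 8 of 56 other settings. Those included leaving out ileum week 3 sample 1 (adjusted p = 0.13) or 2 (0.0919), ileum week 4 sample 2 (0.0703) or 3 (0.107), or duodenum day 2 sample 1 (0.0628).

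Fth1, the heavy chain gene, rose in the duodenum from day 0 to week 4, and the ileum change was not called. Its duodenum samples stood at 924.5, 1046 and 1117 CPM at day 0, 942, 787 and 970.0 CPM at day 8, and 2159, 1191 and 1541 CPM at week 2. By week 4 they reached 2653, 1424 and 2481 CPM. Its ileum samples stood at 1189, 917.5 and 899.5 CPM at day 0, 622, 702 and 771 CPM at day 8, and 914, 927 and 1014 CPM at week 2. They were 578, 631 and 498 CPM in week 3 and 1053, 695 and 779 CPM in week 4. At week 4 every duodenum sample was above every ileum sample and above every duodenum sample of day 0. The duodenal rise was 2.12-fold (log2 1.09 ± 0.23, adjusted p = 0.000244), while the ileum gave a log2 of -0.25 ± 0.23 (adjusted p = 0.403). The difference between these changes was itself called (log2 -1.34 ± 0.33, adjusted p = 0.0114), as it was for Ftl1 (-1.18 ± 0.32, adjusted p = 0.0205). For Ftl1 it was lost without duodenum day 0 sample 2 (-1.12, adjusted p = 0.0555) or ileum day 0 sample 1 (-0.96, adjusted p = 0.0983). Across weaning Fth1 fell 1.67-fold in the ileum (log2 -0.74 ± 0.23, adjusted p = 0.0141), which was lost without ileum week 3 sample 3 (-0.65, adjusted p = 0.0677). The duodenum showed a log2 of -0.01 ± 0.23 there.

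The ratio of Fth1 to Ftl1 CPM gave the same picture within each library, where library scaling cancels. It is not a ratio of molecules, since CPM is not divided by length, but its change over ages is not affected by that. In the duodenum it was 0.506, 0.773 and 0.858 at day 0, 1.33, 1.27 and 1.3 at day 8, 1.59, 1.31 and 1.76 at week 2, and 4.29, 2.47 and 3.65 at week 4. In the ileum it was 0.452, 0.596 and 0.461 at day 0, 0.656, 0.598 and 0.578 at week 2, 0.903, 1.03 and 0.944 at week 3, and 2.45, 1.87 and 2.39 at week 4. The ratio was higher at week 4 than at day 0 in all samples of each region (two-sided exact permutation p = 0.1 in each, the smallest that 3 against 3 can give). Processed copies of these genes took few of the counts. The 6 Fth1 pseudogenes held at most 0.0536% of the joint count and the 3 Ftl1 pseudogenes between 1.11% and 2.83%, and adding them to the parent gene changed no call of either gene. Gm10252, on the opposite strand, and the microRNA gene Gm22133 overlap Ftl1 at chr7:45457944-45459884.

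**Figure D3:**
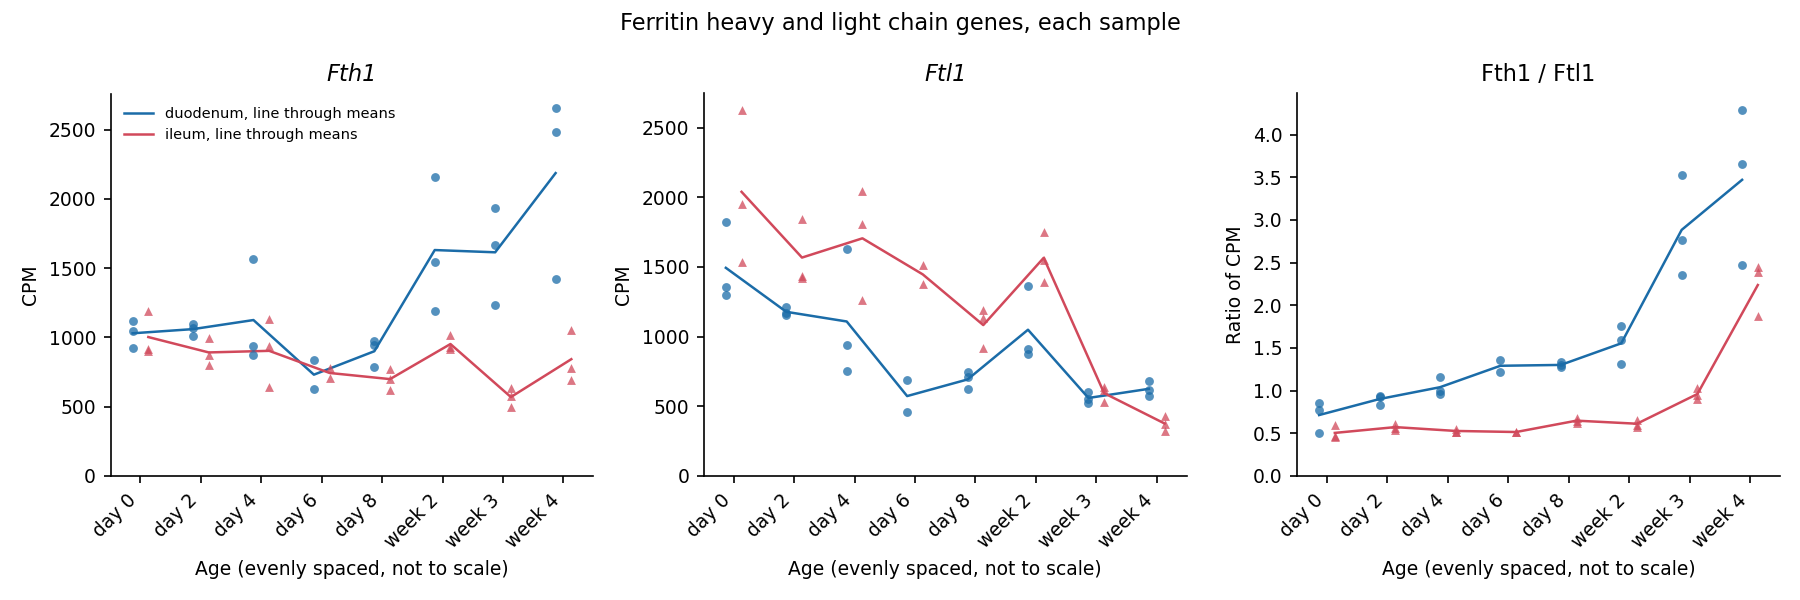
CPM of Fth1 and Ftl1 and the ratio of Fth1 to Ftl1, on linear axes starting at 0, by age, with 1 point per sample (circles, duodenum; triangles, ileum) and lines through the group means. Fth1 climbs in the duodenum, Ftl1 falls in both regions, and the ratio at week 4 is 2.47 to 4.29 in the duodenum and 1.87 to 2.45 in the ileum.

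The calls of the 8 genes are set out by step for each region. From day 0 to day 8, 5 of 8 were called in the duodenum (41.2% of all genes) and 3 of 8 in the ileum (19.3%). From day 8 to week 2, 6 of 8 were called in the duodenum (15.7% of all genes), with Cybrd1, Slc11a2, Slc40a1, Heph and Fth1 higher and Tfrc lower (6.75% of all genes were higher and 8.93% lower). In the ileum none was called by edgeR at that step (6.64% of all genes), although the same 5 genes had positive values there, from 0.34 to 0.97. At an unadjusted p under 0.05 there were 5 of 8, but the share of all genes at that threshold was not counted, so 6.64% is no measure for it. DESeq2 called only Tfrc, at a log2 of -0.72 (adjusted p = 0.0378). At weaning 4 of 8 were called in the duodenum (18.3% of all genes) and 6 of 8 in the ileum (26.8%), every one of them lower, as were 10.6% and 13.9% of all genes. From week 3 to week 4, 3 of 8 were called in each region (12.7% of all genes in the duodenum, 16.1% in the ileum). All 3 were lower in the duodenum (4.96% of all genes), while in the ileum Cybrd1 and Slc40a1 were higher and Ftl1 lower. The duodenal count over these 4 steps, 18 in all, was 9 without duodenum week 2 sample 1 and 11 without duodenum day 8 sample 2. Without week 2 sample 1, none of the 6 duodenal genes was called by edgeR from day 8 to week 2 (adjusted p 0.0729 to 0.267). That sample had an enterocyte marker sum of 69500 CPM, against 35800 and 40100 CPM in duodenum week 2 samples 2 and 3. Its proliferation marker sum was 651 CPM, against 1090 and 985 CPM in those samples. The part of this difference in the calls was not tested. The ileal count, 12 in all, was 19 without the day 4 samples.

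**Figure D4:**
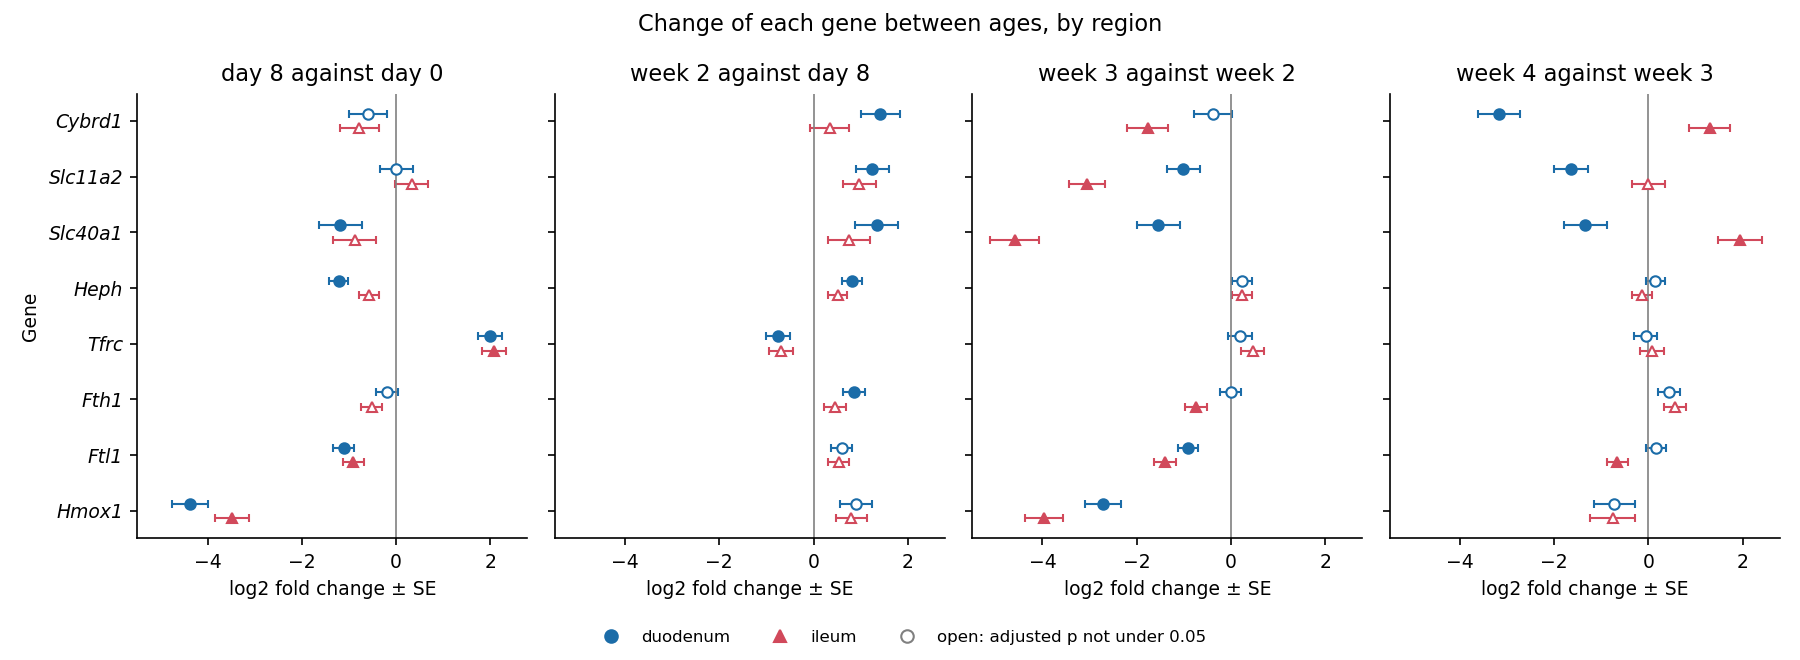
Log2 fold change between ages with its SE for each gene (circles, duodenum; triangles, ileum; open symbols, adjusted p not under 0.05). At week 3 against week 2 the ileum values of Cybrd1, Slc11a2, Slc40a1, Fth1, Ftl1 and Hmox1 lie below 0, and at week 4 against week 3 Cybrd1 and Slc40a1 lie on opposite sides of 0 in the regions.

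Between the regions, averaged over ages, 6 of the 8 genes were called, against 62.1% of all genes. Heph (log2 0.38 ± 0.08), Ftl1 (0.42 ± 0.08) and Hmox1 (1.29 ± 0.14) were higher in ileum, and Cybrd1 (-1.15 ± 0.15), Tfrc (-0.89 ± 0.09) and Fth1 (-0.58 ± 0.08) were lower there, with adjusted p from 1.39e-10 to 5.29e-05. Slc11a2 (-0.04 ± 0.13) and Slc40a1 (-0.24 ± 0.16) were not called. The test for a region difference that varies with age called 6 of 8 genes, against 22.4% of all genes, and did not call Heph (adjusted p = 0.0899) or Tfrc (0.202). With the day 6 samples numbered 3 put back under their labels it called 3.

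At birth 1 of the 8 genes was called between the regions. It was Tfrc, 2-fold lower in ileum (adjusted p = 0.0121, 6.1% of all genes called). That call was lost in 4 of 56 other settings, among them leaving out duodenum day 0 sample 3 (log2 -0.83) or ileum day 0 sample 1 (-1.03) or 3 (-0.82). At day 2, Cybrd1 was 2.61-fold lower (adjusted p = 0.0281) and Hmox1 2.49-fold higher in ileum (adjusted p = 0.00938), 2 of 8 against 8.01% of all genes. The Cybrd1 call was lost without duodenum day 2 sample 1 (adjusted p = 0.123) or 3 (0.0535), without ileum day 2 sample 1, 2 or 3 (0.0695, 0.0774 and 0.133) or with no filter (0.0632). The Hmox1 call was lost without duodenum day 2 sample 1 (0.0515) or with all 48 samples (0.173). Day 4 gave 4 of 8 (26.6% of all genes), day 6 gave 5 (35.3%) and day 8 gave 5 (39.6%). Heph, Ftl1 and Hmox1 were higher and Tfrc lower in ileum at each of these 3 ages. Ftl1 at day 4 was not called without duodenum sample 1 or 2 or ileum sample 1 or 2 of that age (adjusted p 0.109 to 0.231), and at day 8 without duodenum sample 2 or ileum sample 2 or 3 (0.0537 to 0.0791). Heph was not called at day 6 without duodenum sample 1 (0.139) or ileum sample 2 (0.079), or at day 8 without duodenum sample 2 or 3 or ileum sample 2 (0.0595 to 0.083). Tfrc at day 4 was not called without duodenum sample 2 (0.0542). The fifth call was Slc11a2 at day 6, lost without duodenum sample 1 (0.187) or ileum sample 2 (0.156), and Cybrd1 at day 8, lost in 13 of 56 other settings. The largest of these was Hmox1 at day 6, at 20.5 and 19.8 CPM in ileum against 2.64 and 3.21 CPM in duodenum (6.88-fold, adjusted p = 1.53e-05). Over the 8 ages there were 27 calls, and 14 with the day 6 samples numbered 3 put back.

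At week 2, 4 of 8 were called (22.4% of all genes), with Cybrd1 4.36-fold lower in ileum (adjusted p = 0.000398) and Hmox1 2.72-fold higher (adjusted p = 0.00221). The other two were Tfrc, not called without duodenum sample 2 or 3 or ileum sample 1 of week 2 (0.0509 to 0.0732), and Fth1, not called without duodenum sample 1 or ileum sample 1 or 2 (0.0504 to 0.137). At week 3, 4 of 8 were called (14.2% of all genes) and all 4 were lower in ileum, a direction held by 6.9% of all genes. Cybrd1 was 11.4-fold lower (adjusted p = 1.71e-06), Slc40a1 10.5-fold (adjusted p = 1.09e-05), Slc11a2 4.13-fold (adjusted p = 0.00018) and Fth1 2.84-fold (adjusted p = 2.5e-05). The log2 ratio of Slc11a2 went from -2.05 to -1.06 (adjusted p = 0.0163) without duodenum week 3 sample 1, and its call was lost with only the samples of that age in the model (-1.99, adjusted p = 0.0982). For Slc40a1 it went from -3.40 to -4.12 without ileum week 3 sample 1. By week 4 only Fth1 (2.6-fold lower in ileum, adjusted p = 5.38e-05) and Ftl1 (1.66-fold lower, adjusted p = 0.0146; 0.054 without ileum week 4 sample 3) were called by edgeR, 2 of 8 against 28.4% of all genes. Cybrd1 then stood at 16.4 ± 11.5 CPM in ileum and 8.29 ± 3.88 CPM in duodenum (SD, n = 3 each), which was not called (adjusted p = 0.0817).

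The change across weaning differed between the regions for Slc11a2 (ileum minus duodenum in log2 change -2.05 ± 0.50, adjusted p = 0.0271) and Slc40a1 (-3.05 ± 0.65, adjusted p = 0.00884; -3.78 without ileum week 3 sample 1), 2 of 8 against 1.38% of all genes. For Slc11a2 the call was lost in 9 of 55 other settings, and the value shrank to -1.06 (adjusted p = 0.263) without duodenum week 3 sample 1. It was also lost without any of 6 other samples of duodenum week 2 (2 or 3), ileum week 2 (1 or 3) or ileum week 3 (2 or 3), with adjusted p from 0.0571 to 0.0812. The change from day 0 to day 8 gave no call by edgeR for the 8 genes, against 10.1% of all genes, and 0 by DESeq2. At an unadjusted p under 0.05 there was 1 of 8 (Heph, log2 0.65 ± 0.30), a threshold at which all genes were not counted. From day 0 to week 4 the change differed for Fth1 and Ftl1 by edgeR, 2 of 8 against 5.99% of all genes. Cybrd1 had the largest difference there (log2 1.81 ± 0.59, adjusted p = 0.0569), not called by edgeR and called by DESeq2 (1.90, adjusted p = 0.0179), and it was called in 8 of 55 other settings. With the day 6 samples numbered 3 put back, the 4 calls of these 3 tests became 2.

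**Figure D5:**
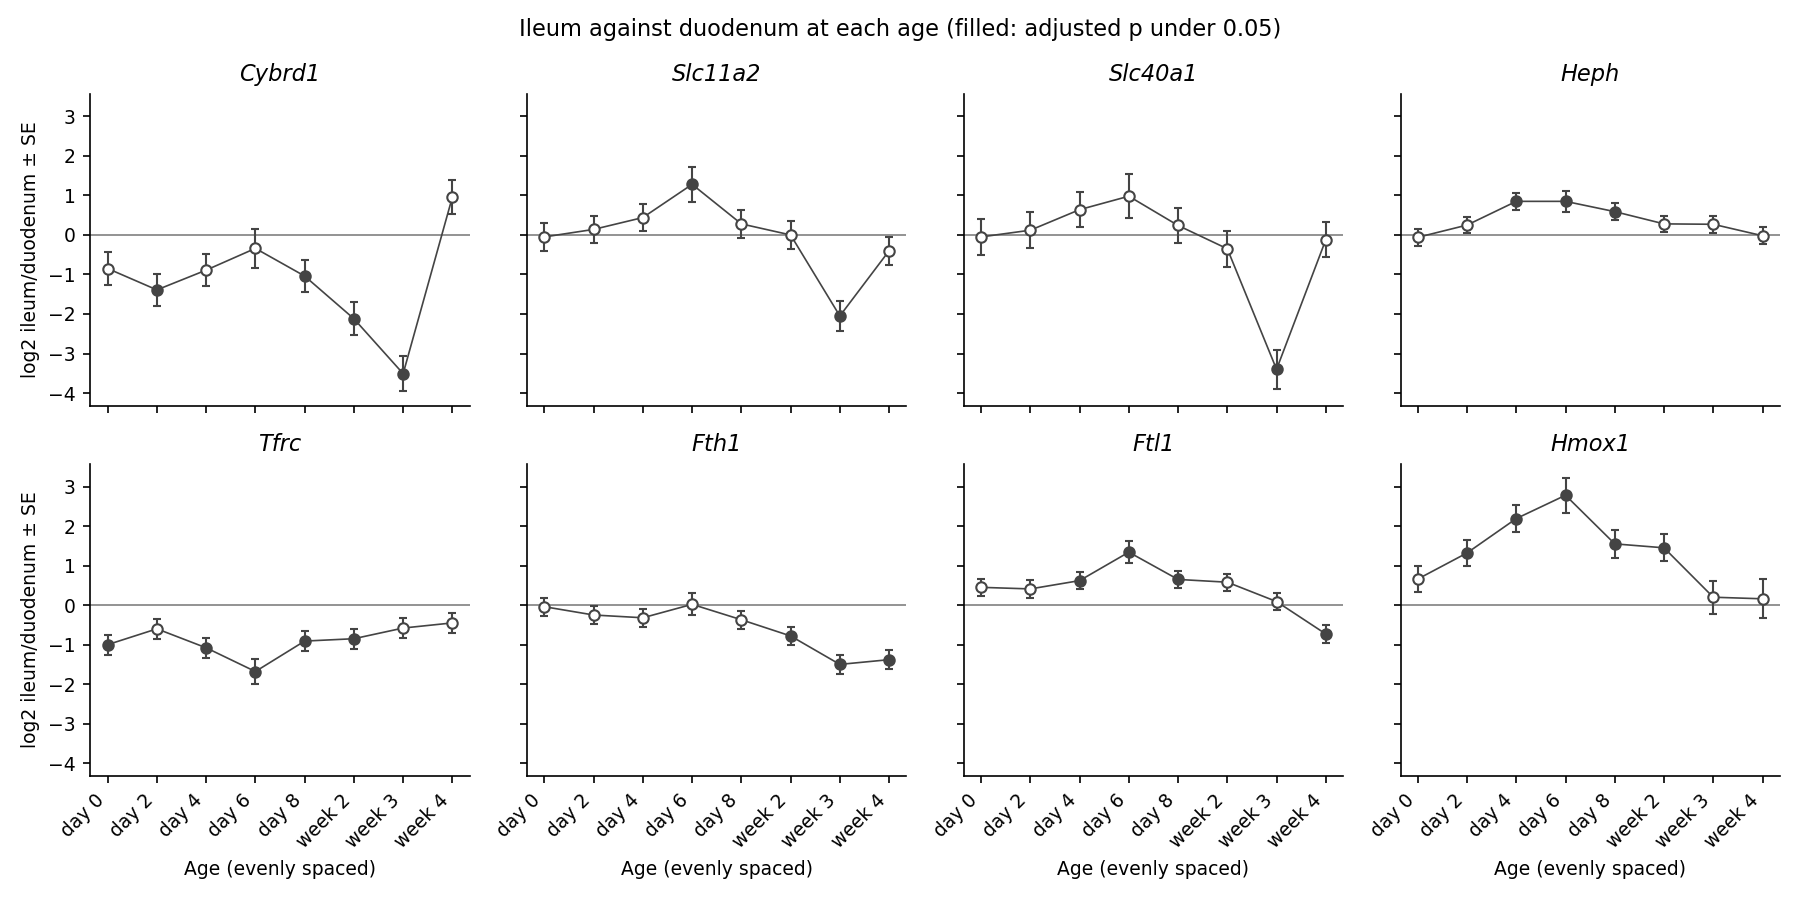
Log2 ratio of ileum to duodenum with its SE at each age (filled points, adjusted p under 0.05). Cybrd1, Slc11a2 and Slc40a1 have their lowest values at week 3, Hmox1 is above 0 at all 8 ages, with calls from day 2 to week 2, and Tfrc is below 0 at all 8 ages.

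Ordered by mean level, most neighbouring groups were not separated by their samples. For Cybrd1, Heph and Fth1 all 15 neighbouring pairs overlapped, and for Slc11a2 and Tfrc 14 of 15 did. For Slc40a1 and Ftl1 12 of 15 pairs overlapped, and for Hmox1 11 of 15. The highest and lowest group means were 30.8-fold apart for Slc40a1 (duodenum week 2, ileum week 3) and 14.8-fold for Cybrd1 (the same groups). They were 8.5-fold apart for Tfrc (duodenum day 6, ileum day 0) and 8.35-fold for Slc11a2 (ileum week 2, ileum week 3). The span was 5.43-fold for Ftl1 (ileum day 0, ileum week 4), 3.84-fold for Fth1 (duodenum week 4, ileum week 3) and 2.89-fold for Heph (ileum week 3, duodenum day 6).

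Genes with the most similar course were found by Pearson correlation over the 16 group means of log2 CPM, among the 12355 genes whose log2 CPM averaged 1 or more. The groups share libraries, ages and depth, so these values describe and do not test. Ftl1 was closest to Vps18 (0.983), a gene of lysosome trafficking, and to the lysosomal protease genes Ctsz (0.982) and Ctsb (0.976). Hmox1 was closest to Glb1 (0.977), which encodes lysosomal beta-galactosidase, to Tmppe (0.971), which shares its locus, and to Atp6v1b2 (0.968), a subunit of the proton pump of lysosomes. Heph was closest to Mpp1 (0.971). Tfrc was closest to Gvin-ps1 (0.977), to Sass6 (0.975), a centriole assembly gene, and to Nfyb (0.966). Slc11a2 was closest to Sipa1l2 (0.956), Aagab (0.948) and Usp54 (0.937), and Slc40a1 to Cyren (0.935), Tmem126b (0.928) and Tmie (0.918). The values were lower for Fth1, at 0.885 for Htatip2, and for Cybrd1, at 0.855 for Bcl2l11. Among the members, Ftl1 and Hmox1 ran together (0.94), while Tfrc ran against Hmox1 (-0.73) and Ftl1 (-0.71), and the value for Fth1 with Ftl1 was -0.07.

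Of 62 other genes of iron and haem handling, 56 were tested, and the 6 too low to test were Scara5, Hephl1, Hamp, Hamp2, Hjv and Ftmt. From day 0 to week 4, 12 were higher and 21 lower in the duodenum and 10 were higher and 20 lower in the ileum, with median log2 changes of -0.36 and -0.30. Of all tested genes 40.5% and 41.9% were called there. In the duodenum 20.4% of all genes were higher and 20.1% lower, and in the ileum 21.5% and 20.4%. At weaning 6 were higher and 8 lower in the duodenum (18.3% of all genes called) and 6 higher and 14 lower in the ileum (26.8%). Averaged over ages, 16 were higher and 29 lower in ileum (62.1% of all genes called). In the list of uptake and membrane genes, 17 of 18 tested, 5 rose and 7 fell in the duodenum and 5 rose and 8 fell in the ileum by week 4. Among 13 regulators of iron and oxygen response, 3 rose and 6 fell in the duodenum and 1 rose and 5 fell in the ileum. Of 7 mitochondrial iron genes 2 rose in the duodenum, and in the ileum 3 rose and 1 fell. Of 9 genes of haem synthesis and breakdown, 1 rose and 3 fell in each region.

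The 4 genes of this wider list with the largest called changes were the same in both regions. Meltf, which encodes a membrane relative of transferrin, fell in the ileum from 3330 ± 1220 CPM at day 0 to 6.5 ± 3.08 CPM at week 4 (SD, n = 3 each, adjusted p = 1.05e-10). In the duodenum it went from 1680 ± 639 CPM to between 0 and 0.222 CPM (adjusted p = 1.51e-12). In the ileum it stood at 3500 ± 479 CPM at week 2 and 300 ± 208 CPM at week 3. Hif3a, a member of the hypoxia-inducible factor family, fell from 234 ± 12.4 to 0.718 ± 0.298 CPM in the duodenum (adjusted p = 1.56e-18) and from 288 ± 38.3 to 1.65 ± 0.893 CPM in the ileum (adjusted p = 6.99e-18). Trf, the transferrin gene, fell 22.3-fold in the duodenum (114 ± 21 to 5.12 ± 1.97 CPM, adjusted p = 1.8e-11) and 28.7-fold in the ileum (228 ± 67.5 to 7.93 ± 3.26 CPM, adjusted p = 3.43e-12). In the duodenum Trf already stood at 6.53 and 7.85 CPM at day 6. Itln1, a lectin gene of secretory cells listed as an intestinal lactoferrin receptor, rose from 2.5 ± 1.54 to 696 ± 111 CPM in the duodenum (adjusted p = 5.65e-14) and from 0.589 ± 0.329 to 786 ± 416 CPM in the ileum (adjusted p = 2.22e-15).

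Between regions the largest averaged differences in the wider list were those of Meltf (log2 2.89 ± 0.25), Steap4 (2.78 ± 0.27) and Ltf (1.89 ± 0.19), higher in ileum, and Tmprss6 (-2 ± 0.24), lower there, with adjusted p of 1.03e-11, 3.48e-11, 1.55e-10 and 3.52e-09. Steap4, a metalloreductase gene, stood at no more than 1.27 CPM in any sample, and Tmprss6, a protease gene of hepcidin control, at no more than 8.53 CPM. Ltf, the lactoferrin gene, was highest in the ileum at day 0, at 14.8 ± 6.3 CPM (SD, n = 3).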

How the data were processed

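Bulk RNA sequencing gave 48 samples, and 46 were used. The authors deposited a table of estimated counts per gene, whole numbers made with STAR 2.6.1d and Salmon 0.14.2 on mm10, per the submitters' processing notes. The authors also deposited tables of normalized signal, each estimated count divided by a size factor within 1 region. These cover 20 samples a region, and DESeq2 1.30.1 is named in the same notes. They hold no day 4 samples and no day 6 samples numbered 3, so the limma fits below are without day 4. Whether counting used strand is not given in the sources used here. No column lacked a sample.

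Genes were filtered by edgeR's filterByExpr (edgeR 4.0.16, R 4.3.3), scaled by TMM and tested with the robust quasi-likelihood test, with a mean for each of 16 groups. P-values were adjusted by Benjamini and Hochberg over all 21986 tested genes within each contrast, and an adjusted p under 0.05 is a call. The SE of a log2 change is the change divided by the root of F. The same code was tested on simulated counts of 21986 genes with 200 changed: for week 4 against day 0 in the duodenum it recovered 29.5% of 2-fold and 72.6% of 4-fold changes, and 4% of calls were false. Only 200 genes changed there, while 40.5% of tested genes were called in the data, so the shares recovered do not carry over. This depth and n can miss changes of 2-fold, but how often they do so here was not measured.

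The members and lists were chosen with earlier results of these data known. All 8 members are named. Of the wider iron list the text names the 4 with the largest called changes, and for each member genes with the highest correlation, of which some are not reported here. Contrasts of day 2 against day 0 were added after values were seen. Alternatives were RLE scaling, no filter, a mean count of at least 10, DESeq2 1.42.0, all 48 samples, no day 4 samples, an index of sex as a covariate, the sample number as a block, only the samples of the region or age, limma 3.58.1 on log2 of the deposited signal plus 1 or plus 0.1, ferritin pseudogenes added to their parent, and each sample left out in turn with 15 instead of 21 points in the dispersion grid. Sequences and coordinates come from GENCODE M21 on GRCm38.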

Additional observations from a re-analysis of the deposited data

Results flagged for a closer look

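Each value here was picked out because a test of the difference itself found that an effect differed between the regions. The test for a region difference that varies with age called Slc11a2 (edgeR adjusted p = 0.00184), Slc40a1 (0.000615), Cybrd1 (0.000182), Fth1 (0.0019), Ftl1 (0.00208) and Hmox1 (0.00571). With all 48 samples it did not call Slc11a2 (0.0713), Ftl1 (0.241) or Hmox1 (0.464).

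The log2 change from week 2 to week 3 was more negative in ileum than in duodenum by -2.05 for Slc11a2 (edgeR adjusted p = 0.0271) and by -3.05 for Slc40a1 (0.00884). From day 0 to week 4 the ileum minus duodenum difference in log2 change was -1.34 for Fth1 (adjusted p = 0.0114) and -1.18 for Ftl1 (0.0205).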

How the results depend on the processing

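Over 216 values of single genes and 12112 recomputed values, 11797 kept their direction and their side of the threshold, 228 lost the call, 87 gained it and 0 were reversed. Counts of members called moved by over 1.5 times in these cases. With all 48 samples the calls at single ages went from 27 to 14, those of the region by age test from 6 to 3 and those of the regional difference in change from 4 to 2. Without day 4 the calls over 4 steps in the ileum went from 12 to 19. Leaving out each sample in turn gave 9 to 19 calls over the duodenal steps (18 with all), the lowest without duodenum week 2 sample 1 and 11 without duodenum day 8 sample 2. The other counts stayed within 1.5 times when each sample was left out: 10 to 14 over the ileal steps, 8 in every fit for any age effect in the duodenum and 6 to 8 in the ileum, 7 in every fit and 5 to 6 for week 4 against day 0, 6 in every fit for the averaged region difference, 24 to 29 at single ages, 6 to 7 for the region by age test and 3 to 5 for the regional difference in change. The causes were not tested. The call of Fth1 for any age effect in the ileum was lost in 34 settings, among them RLE scaling (adjusted p = 0.0594).

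Over all genes, the region by age test called 4930 genes, against 947 with all 48 samples, 9512 without day 4 and 3448 to 6548 with each sample left out. Of the calls in the regional difference in change from day 0 to day 8, 42.2% were higher under TMM and 54.1% under RLE.

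Fitted with a replicate block on the sample number, the members called were 8 and 7 for any age effect in duodenum and ileum, 7 and 5 for week 4 against day 0, and 18 and 12 over the steps. With the region pairs as the replicate block they were 6 averaged over ages, 27 at single ages, 6 for the region by age test and 4 for the regional difference in change. Fth1 was the gene lost in the ileum (adjusted p = 0.0527). Same-numbered samples of the regions deviated together with a mean correlation of 0.076 over 23 pairs (-0.147 to 0.452), and 9 pairs were above 0.1, so the numbers were not taken as pairs.

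Depth limits the low values of Hmox1 after weaning, and 2 or 3 samples a group can leave a change of 2-fold undetected. How often this happened here was not measured.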

Other observations

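The samples labelled day 6 number 3, left out above, are given here as values scaled with all 48 samples. The sample labelled duodenum held Slc11a2 at 329 CPM, Slc40a1 at 571, Cybrd1 at 28.2, Heph at 265, Tfrc at 138, Fth1 at 667, Ftl1 at 1220 and Hmox1 at 15.6 CPM. The sample labelled ileum held Slc11a2 at 101 CPM, Slc40a1 at 304, Cybrd1 at 31.2, Heph at 140, Tfrc at 410, Fth1 at 675, Ftl1 at 452 and Hmox1 at 1.83 CPM. For Slc11a2, Slc40a1, Heph, Tfrc, Ftl1 and Hmox1 each value was closer to the other region's day 6 samples than to those of its own label. For Cybrd1 and Fth1 this was not so in the sample labelled duodenum. Slc11a2 was at 110 and 169 CPM in the other duodenum samples and at 286 and 392 CPM in the other ileum samples. In the same order Slc40a1 was at 257 and 362 CPM and at 557 and 662 CPM, and Heph at 132 and 176 CPM and at 261 and 292 CPM. Tfrc was at 437 and 405 CPM and at 140 and 122 CPM. Ftl1 was at 463 and 686 CPM and at 1380 and 1520 CPM, and Hmox1 at 2.66 and 3.21 CPM and at 20.5 and 19.8 CPM.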
